A study of Mus musculus with 8 samples.

Results

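Albumin, transthyretin, the fetuins, the vitamin D-binding protein and their neighbours in plasma are made by hepatocytes all the time and in large amounts. The 10 genes described here encode such proteins: Alb, Ttr, Ahsg, Fetub, Gc, Ambp, Azgp1, Rbp4, Itih1 and Itih3. They were picked by name out of 63329 names on Agilent mouse arrays, without a cut on their values but with earlier results of these data known. Every one of them had a probe on each of the 2 slides used, and 6 of them (Alb, Ahsg, Fetub, Gc, Ambp and Azgp1) had a probe of identical sequence on both slides.

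The arrays measured RNA of 8 samples in 4 groups of 2. Lin- BM cells, bone marrow cells depleted of lineage-marked cells by magnetic sorting, came from young female mice of the line C57Bl6/J-Tg(UBCGFP)30Scha/J, in which the ubiquitin C promoter drives eGFP. BM-derived hepatocytes were eGFP-positive hepatocytes sorted 1 month or 5 months after such cells had been injected into the tail vein of young male hemophilia A mice (B6;129S4-F8tm1Kaz/J) with a liver injury caused by acetaminophen. Primary hepatocytes were a group for comparison, and neither their strain nor any treatment of the donors was given in the sources used here. Liver cells were released by collagenase perfusion, and per the study's methods the sorted cells were checked by staining for albumin, the product of 1 of the 10 genes. Some of the sorted cells were fusion hybrids of donor and recipient cells. The study counts 2 experiments, each with cells pooled from several mice, but the labels do not tie an array to an experiment, so p-values measure the spread between these arrays, which may be technical.

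Hepatocytes load these proteins into the secretory pathway during synthesis and release them without storage. Transcription of the genes in liver depends on a small set of liver-enriched factors, HNF4, FOXA, C/EBP and others, which bind close to the start sites. Albumin carries fatty acids, bilirubin and many drugs, and Gc, a member of the same family, carries vitamin D and actin. Ttr carries thyroxine and binds Rbp4, the carrier of retinol. Ahsg (fetuin A) keeps calcium phosphate in solution, and Fetub is its relative. Ambp encodes a precursor that is cut into alpha-1-microglobulin and bikunin, and Itih1 and Itih3 encode heavy chains that are joined to bikunin and passed on to hyaluronan. Azgp1 encodes zinc-alpha-2-glycoprotein, a lipid-mobilizing protein with an MHC class I fold.

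Several of the genes lie side by side. In the RefSeq gene order Alb is followed by Afp and Afm, Ahsg by Fetub, Hrg and Kng2, and Itih4, Itih3 and Itih1 stand in a row. In the mm9 coordinates that the second slide's files give for its probes, the Alb probe is at chr5:90901598-90901657 and that of Gc, on the minus strand, 1037 kb away. The probe of Ahsg is at chr16:22899415-22899474 and that of Fetub at chr16:22939736-22939795, a distance of 40.3 kb. Itih3 (chr14:31721835-31721894) and Itih1 (chr14:31742375-31742434) are 20.5 kb apart, both on the minus strand. Azgp1 was probed at chr5:138431245-138431304 and Rbp4 at chr19:38191120-38191179. The Ambp probe and the Gc probe shared by both slides have 60 bases but span 326 and 530 bases of the genome, so each crosses an intron.

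The promoters are shown because the genes were low or undetected together in Lin- BM cells and high together in all hepatocyte groups. RefSeq start sites (GRCm38.p6) were at hand for 9 of the 10 genes, with 2 start sites each for Fetub and Rbp4, so 11 promoters in all. The 250 bases before the start are printed 5′ to 3′ on the strand of the gene for 6 of them, with motif matches on either strand in capitals.
Alb (chr5:90460620-90460869, plus strand): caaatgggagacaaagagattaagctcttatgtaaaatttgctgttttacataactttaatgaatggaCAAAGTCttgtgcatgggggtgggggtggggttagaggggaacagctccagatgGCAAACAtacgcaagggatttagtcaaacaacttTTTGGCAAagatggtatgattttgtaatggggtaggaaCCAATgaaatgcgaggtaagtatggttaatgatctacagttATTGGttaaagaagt
Ahsg (chr16:22891765-22892014, plus strand): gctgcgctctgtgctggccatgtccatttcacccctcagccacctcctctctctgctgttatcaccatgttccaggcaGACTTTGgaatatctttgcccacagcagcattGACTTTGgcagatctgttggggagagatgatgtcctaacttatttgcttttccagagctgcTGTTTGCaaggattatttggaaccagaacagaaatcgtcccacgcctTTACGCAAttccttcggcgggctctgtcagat
Fetub (chr16:22918132-22918381, plus strand): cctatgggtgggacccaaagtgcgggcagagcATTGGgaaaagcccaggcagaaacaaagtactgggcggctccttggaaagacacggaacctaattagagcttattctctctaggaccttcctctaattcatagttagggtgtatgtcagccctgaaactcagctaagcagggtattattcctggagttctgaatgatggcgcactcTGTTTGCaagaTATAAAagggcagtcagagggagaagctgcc
Gc (chr5:89457899-89458148, minus strand): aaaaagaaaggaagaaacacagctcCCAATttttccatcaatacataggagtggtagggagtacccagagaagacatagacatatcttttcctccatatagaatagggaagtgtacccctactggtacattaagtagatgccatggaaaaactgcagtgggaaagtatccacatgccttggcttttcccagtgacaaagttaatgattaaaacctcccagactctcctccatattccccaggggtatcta
Ambp (chr4:63154173-63154422, minus strand): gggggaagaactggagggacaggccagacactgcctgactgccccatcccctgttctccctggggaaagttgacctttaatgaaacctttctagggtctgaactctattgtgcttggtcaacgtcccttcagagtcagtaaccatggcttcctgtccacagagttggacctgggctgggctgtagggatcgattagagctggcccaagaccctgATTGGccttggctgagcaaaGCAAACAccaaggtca
Itih3 (chr14:30923588-30923837, minus strand): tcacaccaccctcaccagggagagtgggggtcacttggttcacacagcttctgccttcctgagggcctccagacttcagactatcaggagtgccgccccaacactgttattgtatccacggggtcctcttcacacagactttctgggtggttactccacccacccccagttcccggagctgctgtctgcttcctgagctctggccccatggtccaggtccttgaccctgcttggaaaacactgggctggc
The motif letters searched were TGTTTAC and TGTTTGC (FOXA), CAAAGTC (HNF4), TTGCNNAA (C/EBP), CCAAT (NF-Y) and TATAAA. Alb holds 2 matches to CCAAT, the nearer ending 11 bases before the start on the other strand, with TTGCNNAA, TGTTTGC and CAAAGTC farther upstream. Gc holds CCAAT, ending 221 bases before the start. Ahsg holds 2 matches to CAAAGTC, 1 to TGTTTGC and 1 to TTGCNNAA. The first Fetub promoter holds TGTTTGC just upstream of TATAAA, and in Ambp TGTTTGC ends 10 bases before the start, on the other strand. No match to the 6 motifs was found in the Itih1 and Itih3 windows. TGTTTGC was present in 4 of the 9 genes (Alb, Ahsg, Fetub and Ambp) and in 4.30% of 32851 promoters of the same length, and TTGCNNAA in 3 of 9 (Alb, Ahsg and Rbp4) and 9.56%. CAAAGTC was present in 2 of 9 and 3.84%, TGTTTAC in 2 of 9 and 3.17%, CCAAT in 6 of 9 and 33.8%, and TATAAA in 2 of 9 and 12.4%. By promoter, the unit of these percentages, the count of each motif was the same but out of 11 in place of 9. Such matches describe letters in a window, and no binding was measured here.

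**Figure D1:**
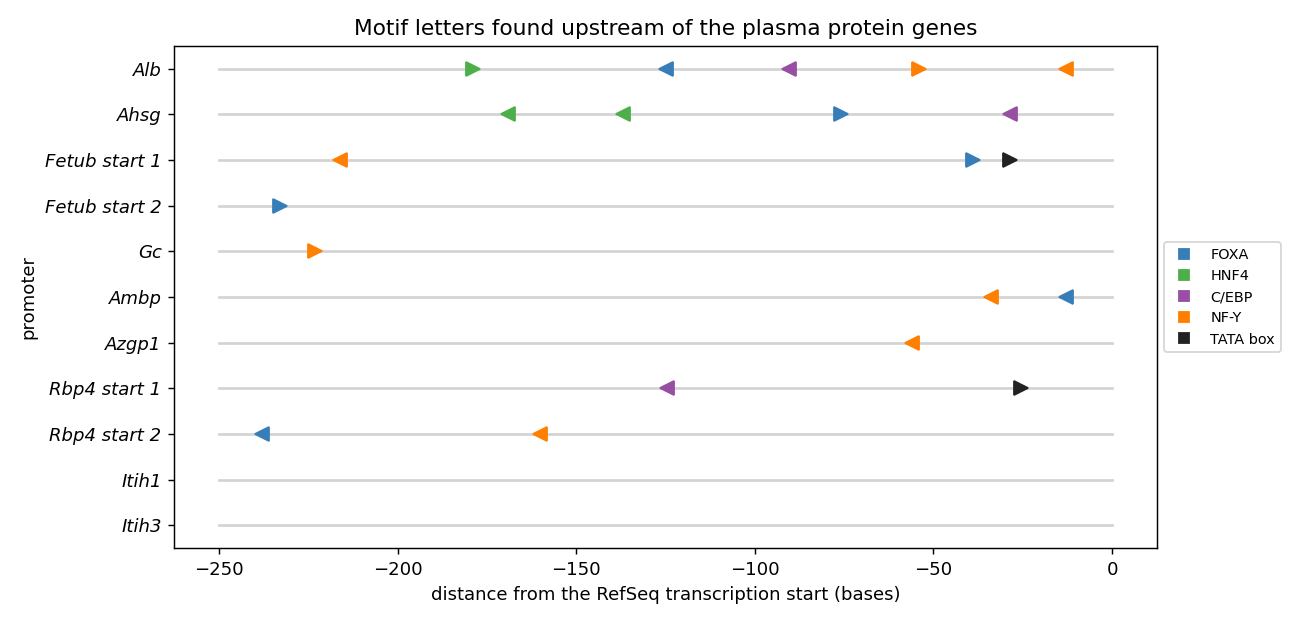
Motif letters in the 250 bases before each RefSeq start of the plasma protein genes, by distance from the start in bases; arrowheads pointing right are on the strand of the gene and those pointing left on the other strand. Alb holds 5 matches within the window, and Itih1 and Itih3 none.

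Values are given as the processed signal of the spot, in fluorescence units, and as a log2 level, the log2 signal minus the 75th percentile of the array. Lin- BM cells and 1-month cells shared 1 slide, and primary hepatocytes and 5-month cells shared the other, which had a different design. Between slides, group, slide and probe design cannot be told apart except that probes of identical sequence remove the probe as a difference. On the 8 arrays 47.7% to 58.6% of spots were well above background and 0 spots were saturated. Hepatocyte marker genes were above background on both arrays for 12 of 12 genes in each of the 3 hepatocyte groups and for 5 of 12 in Lin- BM cells. Of the progenitor genes 8 of 8 were above background on both arrays in Lin- BM cells. So were 4, 5 and 6 of 8 at 1 month, in primary hepatocytes and at 5 months. For neutrophil granule genes the counts were 9 of 9 in Lin- BM cells and, in the same order, 5, 5 and 4. For a test, a gene needed a probe detected on the 2 arrays of any 1 group, and it was called if the Benjamini-Hochberg adjusted p of limma's test was below 0.05 and the log2 change exceeded 0.6 in size.

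The first comparison asked how far the genes had moved from the starting cells at 1 month. All 10 rose, by fitted log2 changes of 7.39 (Itih1) to 16.53 (Alb), and in none of the 10 did the arrays of the groups overlap. This has to be read against the breadth of the difference between the cell types: 28.8% of 28522 genes tested were called higher at 1 month, 26.5% lower and 55.3% in either direction. Both 1-month arrays lay above both Lin- arrays in 43.1%, and the groups did not overlap, in either direction, in 82.1%. All 10 genes passed the filter through the 1-month arrays, and 3 (Ahsg, Azgp1 and Itih1) were also above background on both Lin- arrays, so the count of 10 called of 10 describes genes that had to be bright in 1 group. In such bulk RNA, fewer hepatocytes and less RNA per hepatocyte cannot be told apart.

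Alb had signals of 1.88 and 1.76 in Lin- BM cells, not well above background on either array, and of 74247 and 79365 at 1 month. The level at 1 month was at least 20196-fold higher (adjusted p = 6.06e-05). This bound, on the processed signals, was set against the dimmest spots called well above background. Here and wherever a bound is given, the adjusted p belongs to the fitted change and not to the bound. It rests in part on the spread of undetected signals. Gc, of the same family, went from undetected signals of 1.84 and 2.42 to 31355 and 32751, at least 8431-fold higher (adjusted p = 6.06e-05). Neither albumin family carrier was detected in Lin- BM cells, and both were bright on the 2 arrays of 1-month cells.
The retinol and thyroxine carriers followed. Rbp4 had 5.78 and 14.2 in Lin- BM cells, with only the second array well above background, and 78555 and 103872 at 1 month, a log2 change of 14.45 ± 0.52 (SE, n = 2 arrays per group, adjusted p = 0.000125). Ttr had 1.84 and 1.68, on neither array above background, and 1418 and 1859 at 1 month, at least 427-fold higher (adjusted p = 6.29e-05). The Ttr probe on this slide differs from that on the other slide, so its lower 1-month signal cannot be set against the other groups.
Of the fetuins, Ahsg was detected on both Lin- arrays, at 20.6 and 23.1, and reached 70656 and 82610 at 1 month, a log2 change of 12.95 ± 0.27 (SE, adjusted p = 6.06e-05). Fetub had 9.15 and 24.1 in Lin- BM cells, the second above background, and 34040 and 34401 at 1 month (12.34 ± 0.55, adjusted p = 0.000225). The 1-month arrays differed little for both fetuins, and the spread in Fetub came from the Lin- arrays near background.
Among the inter-alpha-inhibitor genes, Ambp went from undetected signals of 1.87 and 2.32 to 76438 and 92895, at least 22170-fold higher (adjusted p = 6.06e-05). Itih3 had 2.01 and 5.29, neither above background, and 30804 and 20111 at 1 month, at least 6549-fold higher (adjusted p = 0.000209). Itih1, above background in Lin- BM cells at 17.1 and 11.7, had 1275 and 874 at 1 month, with the smallest change of the 10 genes at 7.39 ± 0.38 (SE, adjusted p = 0.000310). The 2 heavy chain genes had the widest spread at 1 month, SDs of 0.56 for Itih1 and 0.61 for Itih3 on the log2 scale, and both were higher on the first 1-month array. Azgp1 had 16.4 and 10.4, above background on both arrays, and 39897 and 36331 at 1 month (12.68 ± 0.33, adjusted p = 6.4e-05).

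**Figure D2:**
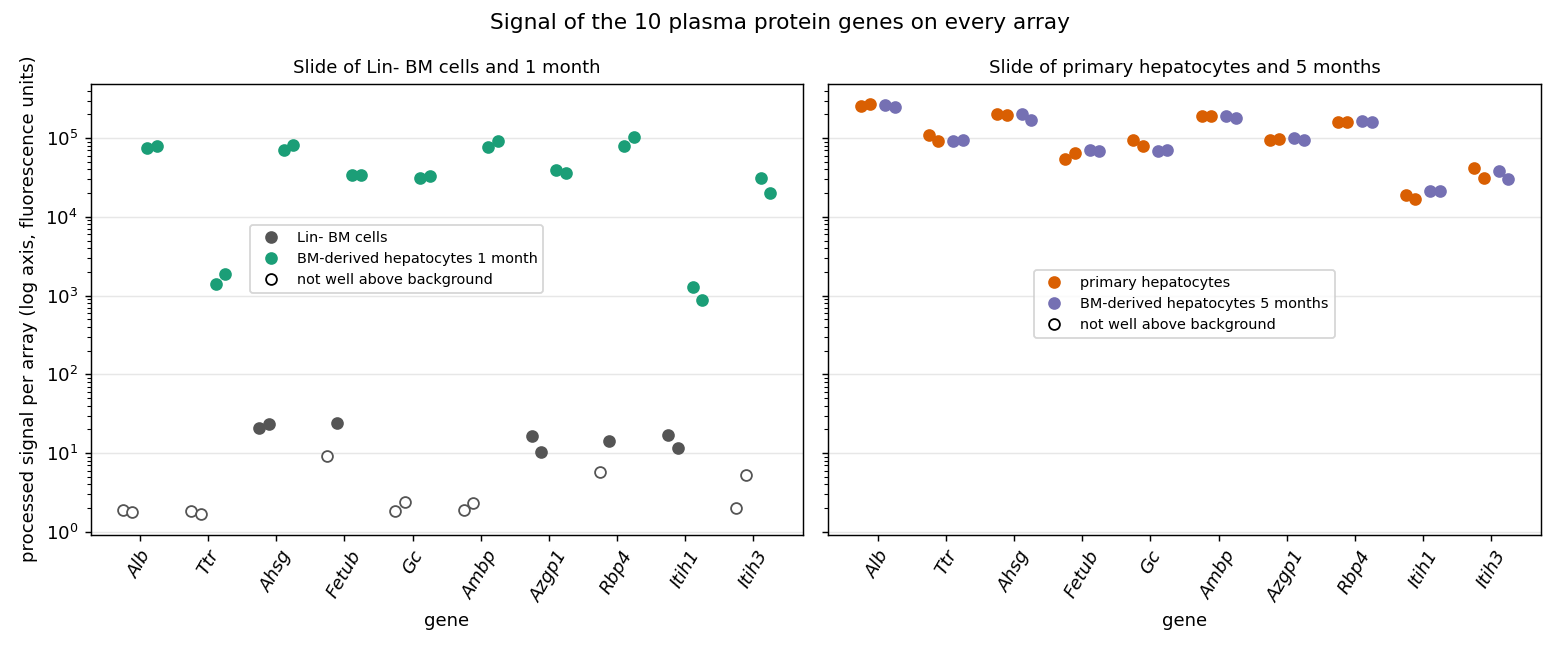
Processed signal of the 10 genes on every array (log axis, fluorescence units), with open circles for spots not well above background; Gc on the right is the probe shared by both slides. The Lin- signals reach 24.1 at most and the hepatocyte signals 874 at least, and on the right the primary and 5-month arrays lie close together for every gene.

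The size of these changes depended on how signals near background were treated. With the normexp background correction, which models the background of dim spots, the 10 changes were 4.71 to 11.29 on the log2 scale, all of them called, and the median over the 10 genes was 9.85 against 13.51 with the processed signals. With undetected genes at their bound the median was 12.81, and the median of all genes tested was 0.07. The bounds hold for the processed signals only. That of Alb was 14.30 on the log2 scale, above the highest normexp change of 11.29. Scaling raised the 1-month values, since the 75th percentile was 1.17 lower on the log2 scale on the 1-month arrays. Without it the changes were 6.22 to 15.36, the median of all genes -1.11, and 3294 genes were called higher and 14075 lower, in place of 8225 and 7552.

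Beyond the 10 genes, 16 of 16 other constitutive plasma proteins, 13 of 13 apolipoproteins and 10 of 10 serpins were called higher at 1 month than in Lin- BM cells (some genes are in more than 1 list), with medians at the bound of 12.04, 11.66 and 11.65. The next of kin were less uniform. Afm, the albumin family gene beside Afp, was undetected in Lin- BM cells and at least 4306-fold higher at 1 month (adjusted p = 0.000194), but Afp, the fetal family member, had levels of 1.71 in Lin- BM cells and 2.85 at 1 month, a change of 1.13 ± 0.52 (SE) that did not pass (adjusted p = 0.119). Itih2 was at least 626-fold higher and Itih4 rose by 7.23 ± 0.51 (SE), whereas Itih5, a relative expressed mainly outside the liver, had a change of -1.05 ± 0.38 (adjusted p = 0.0689). Hrg, Kng1 and Kng2, which follow Fetub on the chromosome, rose by 9.09, 10.09 and 10.71. So 6 of 8 family members were called higher and none lower.

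The lists of partners had medians at the bound of 4.36 for receptors and uptake proteins, 3.32 for ligands and their makers and 1.86 for the secretory pathway, beside 12.81 for the 10 genes. Of the receptors and uptake proteins, 6 were tested, of which 5 were called higher and 1 lower: Asgr1 and Asgr2, the asialoglycoprotein receptor subunits, rose by 10.52 and 10.06, Fcgrt, the heavy chain of the receptor that recycles albumin, by 4.94, Dab2, an endocytic adaptor, by 3.79 and Stra6, the Rbp4 receptor, by 2.23 on the log2 scale. Cubn, a kidney receptor for albumin and vitamin D-binding protein, had the called fall, with a fitted change of -1.54 (adjusted p = 0.0331) and no spot well above background at 1 month. Of 9 tested genes for ligands and their makers, 6 were called higher and 1 lower. Dio1, which activates thyroxine, rose by 8.30, the vitamin D hydroxylases Cyp27a1 and Cyp2r1 by 7.86 and 5.93, and Lrat, which makes retinyl esters, was at least 11.6-fold higher. Vdr, the vitamin D receptor, was not above background at 1 month and at least 7.67-fold lower there (adjusted p = 0.00269). In the secretory pathway 8 of 10 genes were called higher, by 1.01 (Sec61a1, the translocon subunit) to 2.47 (Furin), and Calr and Canx, both lectin chaperones, had changes of 0.26 and -0.28 that did not pass.

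Of 12 tested regulators 11 were called higher at 1 month. Foxa2 was undetected in Lin- BM cells and at least 1074-fold higher, Nr5a2 rose by 8.88, Hnf4a by 7.14, Cebpa by 2.79 and Cebpb by 2.76. Dbp, the circadian albumin promoter factor, had a change of -0.57 ± 0.44 (SE, adjusted p = 0.313). Among 16 induced acute phase genes, 14 were called higher, and Lcn2 and Mt2 were not. Markers of other liver cells moved with these groups as well: 6 of 7 sinusoidal endothelial and 4 of 7 Kupffer cell genes were called higher, the endothelial Pecam1 was called lower, and of 6 stellate cell genes tested 3 were called higher and 2 lower. All 8 progenitor and 9 neutrophil granule genes were called lower. The summed level of the 7 endothelial genes was 3.86 and 4.25 in Lin- BM cells and 61.6 and 67.7 at 1 month, and that of the 7 Kupffer cell genes 3.39 to 5.69 and 9.55 to 40.6, in units of the 75th percentile of the array. Their part in the results was not tested. The 5 biliary markers summed to 19.4 to 24.4 and 0.50 to 2.16, with Krt7, Krt19 and Epcam undetected at 1 month.

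The second comparison asked whether BM-derived hepatocytes at 5 months differed from primary hepatocytes in the same genes. None of the 10 genes was called, against 0.552% of 19929 genes tested (0.366% higher), and 0 of the 10 had an unadjusted limma p below 0.05, against 2817 of all genes tested. The methods' t-test, unadjusted, called 0 of the 10 and 1363 of all genes, and after Benjamini-Hochberg adjustment it called no gene at all. In either test no p-value could have called any of the 10, since their changes, given below, all lay under the limit of 0.6. All 10 were above background on all 4 arrays. The fitted log2 changes were 0.15 to 0.49, with standard errors of 0.20 to 0.25 and adjusted p-values of 0.409 to 0.810, and with 2 arrays a group, changes within the intervals below could not be told from 0.

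Alb had signals of 253371 and 270317 in primary hepatocytes and 264643 and 246271 at 5 months, a log2 change of 0.21 (95% confidence interval -0.38 to 0.80, adjusted p = 0.722). These Alb spots had 90.3% to 95.4% of the mean signal of the brightest spot on their array. Gc was measured by 2 probes. The shared probe, whose first 30 bases are tgtttcagcactcagagtcccctgctgaag, had 94489 and 78553 in primary hepatocytes and 68909 and 71153 at 5 months, and the other, beginning gccttccaagaagatcaccaagataattcc, 147363 and 141065 against 147969 and 144636. They disagreed in direction: mean log2 levels were 9.33 and 9.28 by the shared probe, and 10.07 and 10.34 by the other, which was the brighter and gave a change of 0.27 (interval -0.30 to 0.84, adjusted p = 0.630). The probes' mean gave 0.11, and the gene was called by neither probe.
For Rbp4 the signals were 161909 and 160250 in primary hepatocytes and 165520 and 158168 at 5 months, a change of 0.25 (interval -0.32 to 0.82). Ttr had 108391 and 90958 against 91798 and 94164, a change of 0.15 (interval -0.44 to 0.74), and was the only 1 of the 10 whose log2 levels overlapped between the groups. Ahsg had 201867 and 194183 against 200980 and 171273 (0.15, interval -0.38 to 0.69). In all 3 the processed signals of the groups overlapped, and none of the changes passed.
Fetub, at 54243 and 65243 in primary hepatocytes and 71045 and 69149 at 5 months, had 1 of the largest changes, 0.48 (interval -0.20 to 1.17, adjusted p = 0.484). Itih1, at 18891 and 16807 against 21133 and 21036, had the other, 0.49 (interval -0.08 to 1.06, adjusted p = 0.409). In both genes the 2 5-month signals lay above the 2 primary signals even before scaling.
Itih3 had 41919 and 31127 against 38635 and 30561 (0.17, interval -0.41 to 0.76), Ambp 193164 and 190986 against 191266 and 182284 (0.21, interval -0.36 to 0.77), and Azgp1 93308 and 96330 against 100592 and 95977 (0.30, interval -0.29 to 0.88). In these 3 genes, too, the processed signals of the groups overlapped.

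All 10 changes were positive, against 53.4% of all genes tested, and in 9 of them both 5-month arrays lay above both primary arrays, which held for 25.2% of all genes. Groups that did not overlap, in either direction, made up 47.9%. Bright spots in general behaved so: of the 193 other genes in the brightest percent of genes tested, 163 (84.5%) had a positive change, with a median of 0.17, and 7 of the 10 genes belonged to this brightest percent. The 75th percentile was 0.25 lower on the log2 scale on the 5-month arrays. Without scaling, an alternative chosen after the data had been seen, 5 of the 10 changes were positive and 5 negative, from -0.09 to 0.24. The shift moved every gene alike: the median of the 10 was 0.23 beside 0.04 for all genes with scaling and -0.01 beside -0.21 without. Unscaled, 66 genes were called higher and 63 lower in place of 73 and 37. With quantile normalization the changes were -0.08 (Ahsg) to 0.50 (Itih1), 7 of them positive and 2 negative. It sets values by rank on the array, so it shows little about the level of the brightest spots. None of the 10 was called under these settings, where the changes stayed under the limit of 0.6, so no p-value could have given a call.

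**Figure D3:**
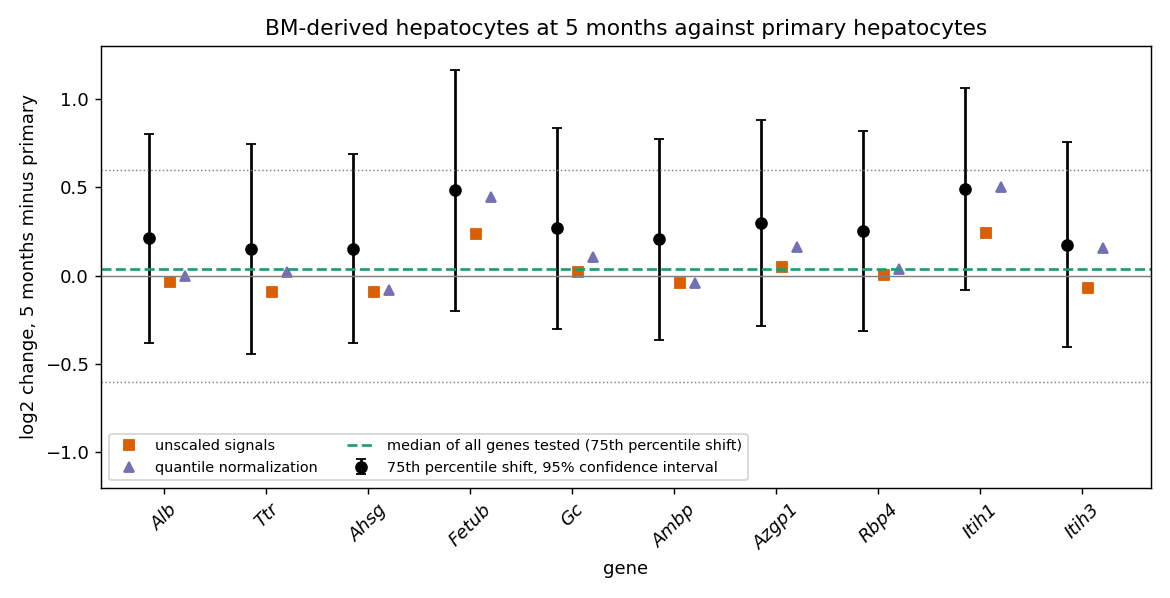
Log2 change of each gene, 5 months minus primary hepatocytes, by the 75th percentile shift with its 95% confidence interval (circles), without scaling (squares) and with quantile normalization (triangles); dotted lines mark the limit of 0.6. All 10 intervals include 0, and Fetub and Itih1 stay the highest under the 3 scalings.

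Of the lists around the 10 genes, the secreted ones held no call at 5 months. None of 16 other constitutive plasma proteins was called, with a median change of 0.26 (15 positive and 1 negative), none of 13 apolipoproteins (median 0.19) and none of 10 serpins (median 0.34), beside a median of 0.04 for all genes. Afm had a change of 0.33, Afp of -0.43 (adjusted p = 0.431), Itih2 of -0.27, Itih4 of 0.26, Itih5 of -0.14, Hrg of -0.10, Kng1 of 0.29 and Kng2 of -0.74 (adjusted p = 0.403). Of the partners, Lrp2 (megalin), the receptor that takes up Rbp4 and Gc in kidney, was the only called gene of the lists, undetected in primary hepatocytes and at least 2.07-fold higher at 5 months (adjusted p = 0.0356). Asgr1, Asgr2 and Fcgrt had changes of 0.09, 0.15 and 0.05. None of 14 regulators was called. Their changes ran from -1.68 (Dbp, SE 1.88) to 0.76 (Foxa1, SE 0.21), with Hnf4a at 0.14, Nr5a2 at -1.44 (adjusted p = 0.135) and Prox1 at -1.65 (adjusted p = 0.097).
The induced acute phase genes, which hepatocytes switch on in inflammation, spread more widely than the constitutive ones without a call among 16. The changes ran from -1.92 (Hamp, adjusted p = 0.159) and -1.77 (Apcs, adjusted p = 0.258) to 1.34 (Orm1, adjusted p = 0.306) and 1.46 in both Orm2 (adjusted p = 0.313) and Lcn2 (adjusted p = 0.456). No marker of another cell type was called. All 7 Kupffer cell markers had positive changes, and their summed level was 31.3 to 67.0 in primary hepatocytes and 121 to 123 at 5 months. Of 6 neutrophil granule genes tested 5 had positive changes, with sums over the 9 genes of 13.3 to 25.0 and 15.8 to 81.9, and of 6 stellate cell genes 4, with sums over 7 genes of 3.35 to 5.06 and 3.85 to 4.22. Of the 7 endothelial genes 3 had positive changes, with sums of 55.3 to 60.3 and 58.0 to 72.4. The 12 hepatocyte genes summed to 5079 to 5928 and 4748 to 5433. The part of these cells in the results was not tested.

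**Figure D4:**
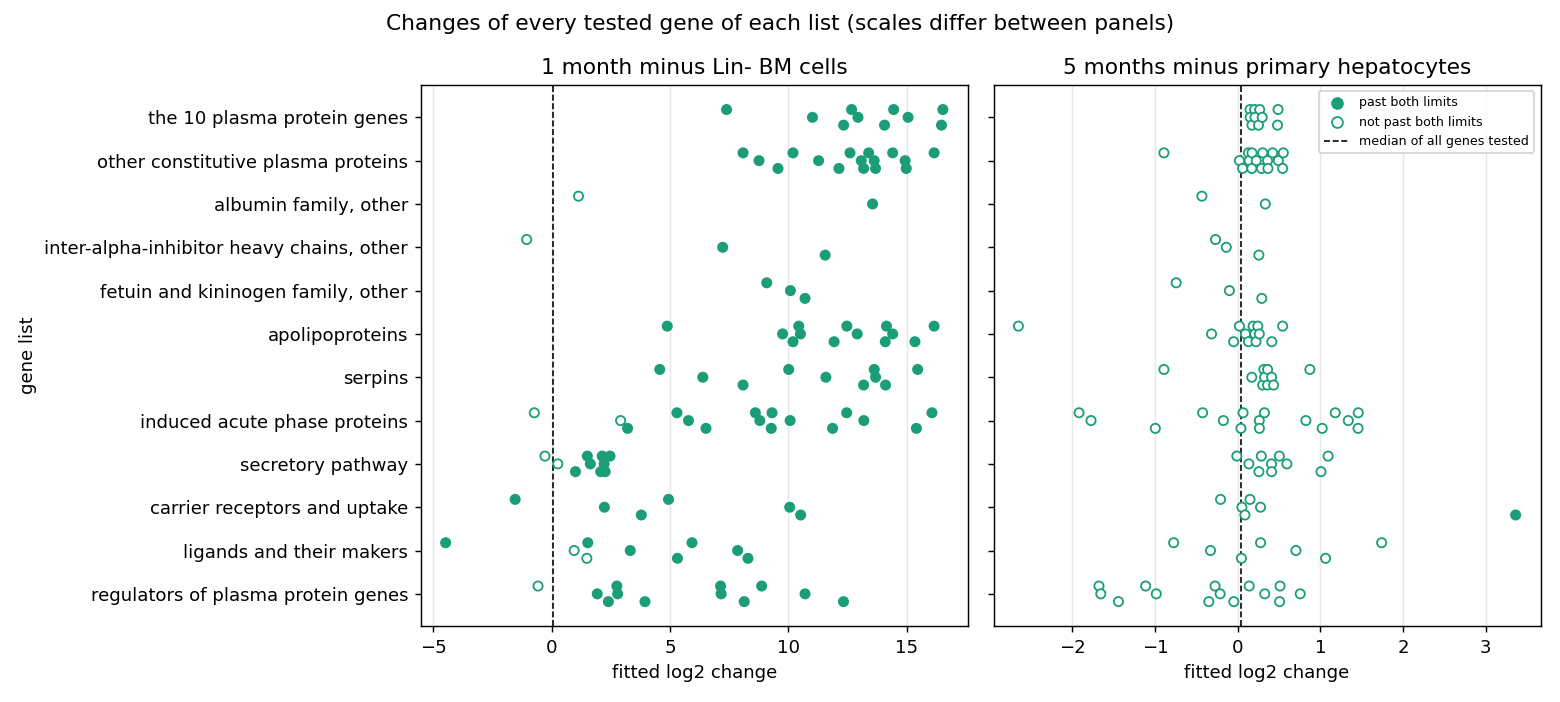
Fitted log2 changes of every tested gene of each list at 1 month against Lin- BM cells (left) and at 5 months against primary hepatocytes (right), filled where the gene passed both limits; the dashed line is the median of all genes tested. On the left all 10 plasma protein genes are filled, and on the right Lrp2 is the only filled point.

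For the 6 genes with a shared probe all 4 groups could be set on 1 scale, with levels scaled by the 75th percentile of the shared probes. The differences between slides that follow cannot be told apart from the slide. Against Lin- BM cells, primary hepatocytes and 5-month cells both had higher levels in 6 of 6 genes, where 29.3% of 9211 genes were called higher in either comparison. Only Ahsg and Azgp1 were above background on both Lin- arrays. The rest passed the filter through hepatocyte arrays alone, so the count of 6 of 6 describes genes that had to be bright there. Calls in both directions were 67.4% and 67.1% of genes (38.1% and 37.8% lower), the hepatocyte arrays all lay above the Lin- arrays in 36.3% and 37.7%, and the groups did not overlap in 83.3% and 85.9%. Primary hepatocytes were at least 35322-fold above Lin- BM cells for Alb, 25923-fold for Ambp and 11628-fold for Gc, and the 5-month cells at least 42065-fold, 30766-fold and 11538-fold. These bounds, too, hold for the processed signals only. With normexp the 6 log2 changes were 9.78 to 12.12 in primary hepatocytes and 10.29 to 12.34 at 5 months. The Alb bounds were 15.11 and 15.36 on that scale. Ahsg, Azgp1 and Fetub differed by 13.36, 13.04 and 12.18 on the log2 scale in primary hepatocytes and by 13.56, 13.38 and 12.71 at 5 months (adjusted p-values of 1.12e-07 to 2.4e-06). Both comparisons use the same Lin- arrays.

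Among the hepatocyte groups, Alb had mean levels of 8.46 ± 0.06 at 1 month, 9.24 ± 0.21 in primary hepatocytes and 9.50 ± 0.08 at 5 months (SD, n = 2 each). The arrays of the 3 groups did not overlap. By pairs this held for 71.7% of genes at 5 months against 1 month and 64.7% at 1 month against primary hepatocytes. At 5 months against primary hepatocytes it held for 47.9%, over all genes tested within that slide. The share of genes with all 3 groups apart was not counted. Alb was higher at 5 months than at 1 month by 1.04 ± 0.22 (SE, adjusted p = 0.0245), the only call among the 6, where 5.82% of 9211 genes were called higher and 17.1% in either direction. The brightest spot had a mean signal of 119825 to 120828 on the 1-month arrays and 236388 to 249752 on the 5-month arrays. The part of this range in the Alb difference was not tested. In all 6 genes both 5-month arrays lay above both 1-month arrays, against 29.0% of genes. The difference of -0.78 between 1 month and primary hepatocytes (interval -1.30 to -0.27) missed the limit (adjusted p = 0.0539). In that comparison 5.14% of genes were called lower and 16.8% in either direction. Both 1-month arrays lay above both primary arrays, the direction opposite to that of Alb, in 40.0% of genes. Alb at 5 months against 1 month lost its call without any 1 of the 4 arrays compared (changes of 0.98 to 1.09, adjusted p = 0.083 to 0.138) and with quantile normalization (0.60, adjusted p = 0.0808), while with the authors' processed values, scaled over all probes, both differences passed (1.27, adjusted p = 0.0152, and -1.06, adjusted p = 0.0238). Over all its alternatives the adjusted p of Alb at 5 months against 1 month ran from 0.00626 to 0.138.
The other 5 were lower at 1 month than at 5 months by mean level as well, without passing. Ahsg had 8.45 ± 0.03 at 1 month, 8.84 ± 0.10 in primary hepatocytes and 9.03 ± 0.01 at 5 months, the last 0.58 ± 0.20 (SE) above the first (adjusted p = 0.0946). Azgp1 had 7.45 ± 0.23, 7.78 ± 0.17 and 8.12 ± 0.10, and Ambp 8.59 ± 0.07, 8.80 ± 0.13 and 9.04 ± 0.10 in the same order (5 months against 1 month 0.67, adjusted p = 0.161, and 0.45, adjusted p = 0.200). Gc had 7.20 ± 0.09, 7.64 ± 0.05 and 7.63 ± 0.18, so that primary hepatocytes and 5-month cells did not differ beyond their spread. Fetub departed from the order, with 7.29 ± 0.12 at 1 month, 7.11 ± 0.33 in primary hepatocytes and 7.63 ± 0.12 at 5 months, the first 2 overlapping. Neighbours in these orders were not separated by the test in any gene, while Lin- BM cells lay far below in all 6.
The all-gene background moved with the scale. The median of all genes was -0.14 at 5 months against 1 month and 0.17 at 1 month against primary hepatocytes, 0.08 and -0.09 with the percentile taken over all probes, and -0.01 and 0.02 with quantile normalization, which left 0 of the 6 called. That normalization sets values by rank, and it put Alb 16.63 above Lin- BM cells both in primary hepatocytes and at 5 months. Calls at 5 months against 1 month were 536 higher and 1036 lower, 829 and 745 over all probes, and 685 and 766 with quantile normalization. At 1 month against primary hepatocytes they were 1070 and 473, 746 and 750, and 665 and 596. With the normexp correction 5 of the 6 genes, all but Fetub, were called higher at 5 months than at 1 month, by 0.64 to 0.93, and Alb and Gc were called lower at 1 month than in primary hepatocytes. Over all genes that correction gave 699 higher and 2021 lower calls at 5 months against 1 month, with a median of -0.32, and 2111 and 583 at 1 month against primary hepatocytes, with a median of 0.32.

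**Figure D5:**
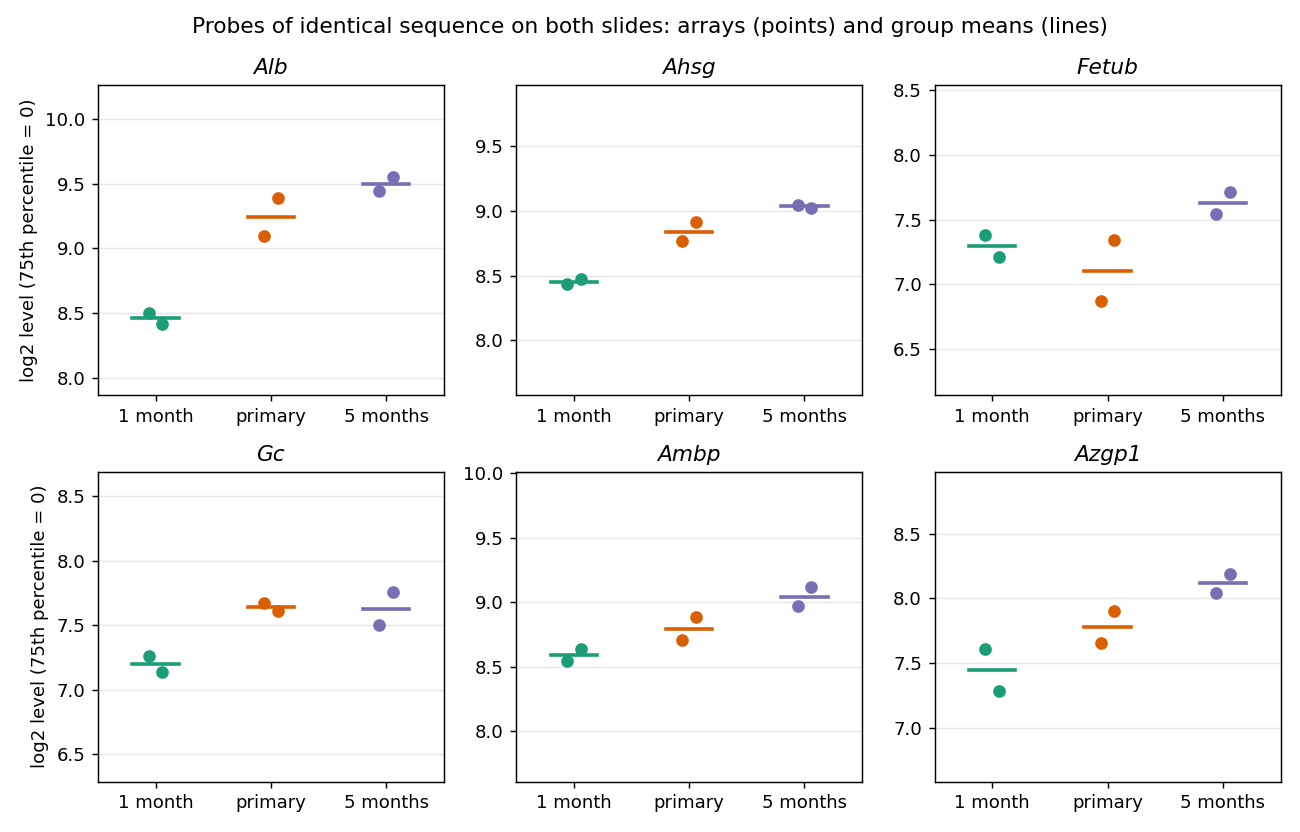
Log2 levels of the 6 genes with an identical probe on both slides, 1 point per array and a line at the mean of each group, on axes of equal length; Lin- BM cells, far below, are not drawn. Alb has the widest gap, from 8.46 at 1 month to 9.50 at 5 months, and in Fetub the 1-month and primary arrays overlap.

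On the same shared probes Afp ran the other way. Its levels were 1.43 at 1 month, -0.71 in primary hepatocytes and -1.10 at 5 months, 2.53 ± 0.47 (SE) lower at 5 months than at 1 month (adjusted p = 0.0182) and 2.14 ± 0.47 higher at 1 month than in primary hepatocytes (adjusted p = 0.0293). Afm, next to it, had 6.23, 6.45 and 6.83 with no call among the hepatocyte groups. Afp was also above background on both Lin- arrays, and its 1-month level was not called against theirs within the slide. At 5 months against Lin- BM cells Afm was called higher and Afp lower. Of the other constitutive plasma proteins with a shared probe, 3 of 11 were called higher at 5 months than at 1 month: Pzp (1.80), Plg (1.35) and Apoa1 (1.02). Of 4 regulators with a shared probe, Cebpa, a regulator of albumin, was higher at 5 months by 1.35 ± 0.30 (SE, adjusted p = 0.0302), and Zhx2, called as well, was not well above background in either group. In the secretory pathway Calr (1.82) and P4hb (1.06) were called higher of 8 tested. Of the hepatocyte markers with a shared probe 1 of 8 (Arg1, urea cycle) was called higher, and of the Kupffer cell markers 2 of 5 (Marco and Csf1r). Of 5 sinusoidal endothelial markers 1 (Kdr, -1.16, adjusted p = 0.0441) was called lower. Among the uncalled ones 3 had negative changes and 1 a positive change. The part of these other cells in the differences was not tested. Of 11 induced acute phase genes 1 (Orm1) was called higher and 1 (Apcs) lower.

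The 5 genes whose levels over the 4 groups came closest to the median profile of the 6 were Ces1d, Serpinc1, Ces1e, Cyp4f14 and Mup17, out of 9211 genes with a shared probe. Their mean absolute difference from that profile, each gene centred on its own mean, was 0.05 for Ces1d, 0.11 for Serpinc1, 0.12 for Ces1e, 0.15 for Cyp4f14 and 0.16 for Mup17 on the log2 scale. The 6 genes themselves lay 0.38 (Gc) to 1.05 (Alb) from it. Ces1d had levels of -7.98 in Lin- BM cells, 6.08 at 1 month, 6.47 in primary hepatocytes and 6.43 at 5 months. Levels near -8 were below detection, so the depth of the profile is set by the background there.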

How the data were processed

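One-colour Agilent arrays of 8 samples, 2 per group, were analysed. Per the labels, RNA was primed with oligo-dT and labelled with Cy3. The authors' Feature Extraction 11.5.1.1 gave the deposited processed signal, an intensity per spot. The authors' deposited value tables hold log2 values shifted by the 75th percentile in GeneSpring, which matched log2 of the processed signal, less a constant for each array, to 0.02 in 99.7% or more of the probes.

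Here the 75th percentile of each array was subtracted from log2 of the processed signal, and limma 3.58.1 (R 4.3.3) was fitted within a slide, or over all 4 groups on 13991 probe sequences shared by both slides, with the brightest probe of a gene. Calls needed a Benjamini-Hochberg adjusted p below 0.05 and a log2 change over 0.6. A bound compares the bright group with, per array, the higher of the dimmest well-detected signal and the dim probe's own. The fit was tested on simulated data. The text names the 10 genes, list genes called within a slide (up to 4 of a list) or acting as relative, receptor, ligand maker or regulator, and the 5 nearest profiles; other list and marker genes are named for their values. The 10 genes and the lists were chosen with earlier results of these data known. Alternatives were normexp (offset 50), quantile scaling, unscaled signals, detection filters, probe means, the authors' values, the percentile over all probes, the methods' t-test and leaving out each array. Some planned items are not reported here. The number of arrays limits the precision.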

Additional observations from a re-analysis of the deposited data

How the results depend on the processing

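At 1 month against Lin- BM cells all 10 genes kept their direction and call under the alternatives in which they were tested. Requiring detection on all arrays left 3 of the 10 tested and called, and shared probes 6, since both test fewer genes (21135 and 9211 of 28522). Over all genes, 15777 calls became 26462 without a filter, 4566 by the methods' t-test after Benjamini-Hochberg adjustment, 5774 on shared probes and 9896 (without 1 month replicate 2) to 12512 when an array was left out. At 5 months against primary hepatocytes 0 of the 10 were called under any alternative (limma, 0 at an unadjusted p below 0.05). Over all genes 110 calls became 38 without a filter, 47 with detection on all arrays, 0 and 1363 by the adjusted and unadjusted methods' t-test, and 0 (without either 5-month array) to 1396 (without primary hepatocytes replicate 2, and 1303 without replicate 4) when an array was left out. The sign turned with quantile normalization in Ahsg (-0.082) and Ambp (-0.042), without scaling, an alternative chosen after seeing the data, in Alb (-0.036), Ttr (-0.095), Ahsg (-0.094), Ambp (-0.041) and Itih3 (-0.072), and on shared probes in Gc (-0.011), which is another probe. The 75th percentile shifts all genes of an array alike by construction, and other causes were not tested.

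With detection on all arrays, 2 of 6 genes were tested and called against Lin- BM cells in primary hepatocytes and 2 at 5 months, and total calls in primary hepatocytes went from 6211 to 4127. The adjusted t-test gave 2500 calls there and 3315 at 5 months in place of 6184. At 1 month against primary hepatocytes, normexp called 2 of the 6, and no filter, the authors' values, the unadjusted t-test and the percentile over all probes called 1 (Alb). The 1543 calls became 2694 with normexp, 4040 without a filter, 903 with detection on all arrays, 2 by the adjusted t-test and 587 (without 1 month replicate 2) to 1836 when an array was left out, with 908 without 1 month replicate 1, 818 without primary hepatocytes replicate 2, and 995 and 988 without 5 months replicate 1 and 3. The change of Fetub turned to -0.060 with normexp, -0.093 with the authors' values and -0.081 with the percentile over all probes, and when an array was left out it ran from -0.046 (without primary hepatocytes replicate 2) to 0.42. At 5 months against 1 month, normexp called 5 of the 6, and quantile normalization and the adjusted t-test called 0. Detection on all arrays left 2 genes (Ahsg and Azgp1) to test, without Alb, and called 0. Leaving out an array gave 0 (any of the 4 compared) to 1. The 1572 calls became 2720 with normexp, 14 by the adjusted t-test and 342 (without 5 months replicate 1) to 1718 when an array was left out, with 450 without 5 months replicate 3, and 838 and 511 without 1 month replicate 1 and 2. The median level of the 10 genes moved with normexp from -5.08 to -1.89 in Lin- BM cells, 8.79 to 7.95 at 1 month (8.57 with quantile normalization), 9.80 to 9.28 in primary hepatocytes and 10.05 to 9.49 at 5 months. A fit that leaves 1 array in a group assumes that it varies like the others. No paired analysis was possible because the compared groups share fewer than 2 replicate numbers, and each within-slide comparison lies on 1 slide, so a slide block could not be fitted.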
